A study of Rattus norvegicus with 2 samples.

Results

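Expression of 46 genes of ribosome biogenesis and the nucleolus was read from poly(A) RNA-seq of cultured neonatal rat ventricular cells. The members are the rows of the gene table whose symbol belongs to named families and factors of ribosome production: Nop, Utp, Rrp and Nol with a number, Npm1 and Npm3, the GTPases Gnl2, Gnl3 and Gnl3l, the snoRNP proteins, and factors such as Fbl, Ncl, Pes1, Bop1, Brix1 and Nob1. They make up 46 of 16846 gene symbols. Of the named factors, Dkc1, Npm3, Bysl and Tsr1 were not analysed here. There was 1 library per group, so no difference below has a replicate check.

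Both groups came from ventricles of rats at postnatal day 0. A 2 h step on uncoated dishes removed cells that attach fast, and the rest was cultured as cardiomyocytes; the submitters state more than 90% purity. The anti-miR culture received adeno-associated virus (AAV, serotype 2/9) encoding short hairpin inhibitors of miR-99/100 and of let-7 and was kept for 7 days. For the control, one label names an AAV without insert and another a mock transduction. The comparison asks how lowering these miRNAs alters the transcriptome of the cells. The miRNAs act by pairing of their seed, bases 2 to 8, with target mRNAs. Their mature forms are shown because the seed defines each family, with the seed in capitals (RefSeq, GRCr8). Both let-7 forms share 1 seed, and miR-99b and miR-100 share another.
let-7a-5p: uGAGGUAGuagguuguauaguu
let-7c-5p: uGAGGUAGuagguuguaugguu
miR-99b-5p: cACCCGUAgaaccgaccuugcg
miR-100-5p: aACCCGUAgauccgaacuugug

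Ribosomes are built in the nucleolus. RNA polymerase I transcribes a long precursor rRNA there, small nucleolar ribonucleoproteins (snoRNPs) guide its chemical modification, and assembly factors fold, cut and load it with ribosomal proteins to give the small (40S) and large (60S) subunits. In heart muscle this production rises with growth of the cells, in development and in hypertrophy, and the transcription factor Myc is a known driver of many of its genes.

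Depth was 16031780 reads on genes for the control and 14815846 for anti-miR. Pairs of values give the control first, then anti-miR. Levels are in RPM, each library's reads scaled to a total of 1000000 reads on genes, and a count of 0 allows up to 0.187 and 0.202 RPM. Ratios are anti-miR over control with an exact Clopper-Pearson 95% interval that covers counting error only. The labelled cell type was only partly visible. Of 15 cardiomyocyte markers measured, Ckm and Myl7 had 0 reads in both libraries. Myh6, Myl3, Ryr2 and Tnni3 had 0 in the control and 23, 19, 20 and 5 reads after anti-miR, with means below 1 RPM. Most of the marker signal came from Tnnt2, at 147 and 161 RPM, and Actc1, at 77.0 and 88.8 RPM. Myl2 had 30 and 5 reads and Tnnc1 59 and 33, while Myh7 had 99 and 171 and Nppa 91 and 139. Of 8 markers with a mean of at least 1 RPM, Myh7 and Nppa were at least 1.5-fold higher and Myl2 and Tnnc1 lower. That was 25% each way, beside 10.8% and 8.56% of all genes with such a mean. The 15 markers summed to 254 and 289 RPM, against 142754 and 143412 RPM for 10 fibroblast markers and 6902 and 7624 for 10 macrophage and leukocyte markers. Without Lyz2 (2937 and 3937 RPM) the last sum was 3965 and 3687, and 5 of the 10 had ratios below 1. In bulk samples fewer cells of a type and less RNA per cell cannot be told apart.

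As a whole the ribosome biogenesis genes stood at the same level in both libraries. Together they took 1484 RPM in control cells and 1508 after anti-miR, 0.148% and 0.151% of reads, a ratio of 1.02 (0.998 to 1.03). Of the 46 members, 45 had a mean of at least 1 RPM, the floor for counting a gene. Nol4, a gene known mainly from brain and testis, had 0 reads in both libraries. The median log2 ratio of the 45, taken after adding 0.1 RPM to each value, was 0.00, beside 0.03 over all 10365 genes above the floor. The middle 50% ran from −0.18 to 0.27, and over all genes from −0.21 to 0.27.

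Only Nop2 passed a 1.5-fold difference, the rule used here for a gene being higher or lower. Thus 1 of 45 members was at least 1.5-fold higher, where 10.8% of all genes were, and 0 of 45 were at least 1.5-fold lower, where 8.56% of all genes were. Ratios were above 1 for 23 members and below 1 for 22, beside 53.3% and 46.7% of all genes. Smaller differences beyond counting error were common. The interval lay above 1 for 14 members (31.1%, all genes 33.6%) and below 1 for 7 (15.6%, all genes 28.1%), and it included 1 for 24. The share with an interval above 1 is near that of all genes, and the share below 1 is smaller. Counting error is not the spread between cultures, which 1 library per group cannot give. Set against the 500 genes nearest in level, 1 member, Brix1, lay outside the central 95% of their log2 ratios, as 5.27% of all genes did.

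**Figure D1:**
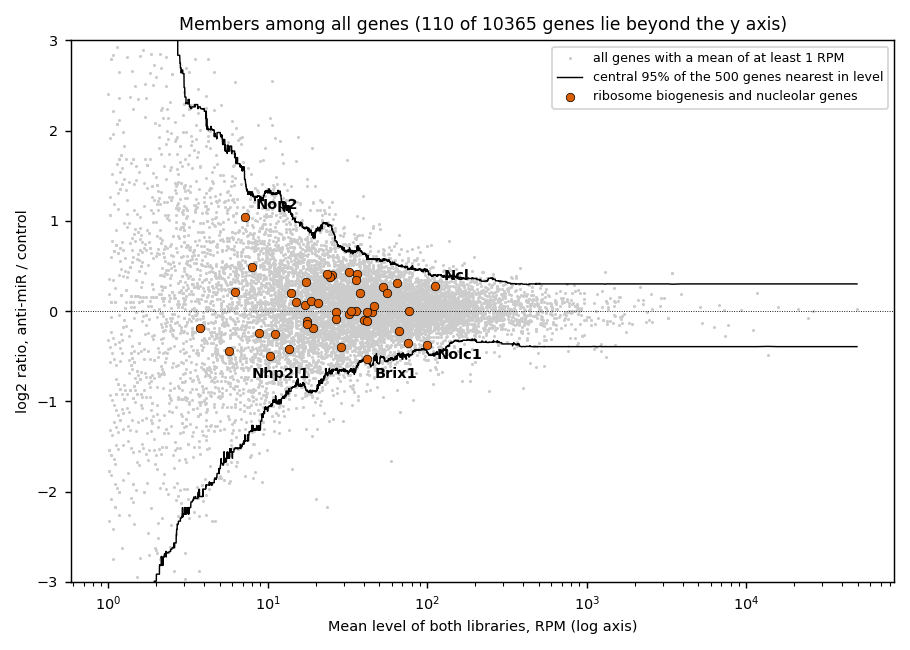
The log2 ratio of anti-miR over control (vertical axis) is plotted against the mean level in RPM (horizontal log axis) for 10365 genes in grey, with 45 ribosome biogenesis genes in orange. Black lines bound the central 95% of the 500 genes nearest in level, and Brix1 is the 1 member outside them, at −0.53 against a lower bound of −0.51; 110 genes lie beyond the axis.

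Levels per length spanned a wide range among the members. On the scale of RPM per kilobase of transcript (RPKM), they ran from 1.85 to 60.7 in control cells and from 2.36 to 60.7 after anti-miR, with medians of 13.4 and 14.2. The median over all genes above the floor was 13.2 and 13.4 RPKM, and 24 and 26 of the 45 members lay above it. On the mean of both libraries Npm1, Ncl, Ebna1bp2, Nop58 and Gnl2 were the most abundant, and Rrp8, Nop2, Nol8, Nop10 and Utp20 the least. Npm1 and Ncl led in each library, but the order below them differed. In the control Pes1, Nop16, Nolc1 and Fbl exceeded Nop58, and after anti-miR Fbl, Imp4, Gnl3, Nop16 and Pes1 exceeded Gnl2. Among the 45, the smallest count in either library was 52 reads, for Nop10.

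**Figure D2:**
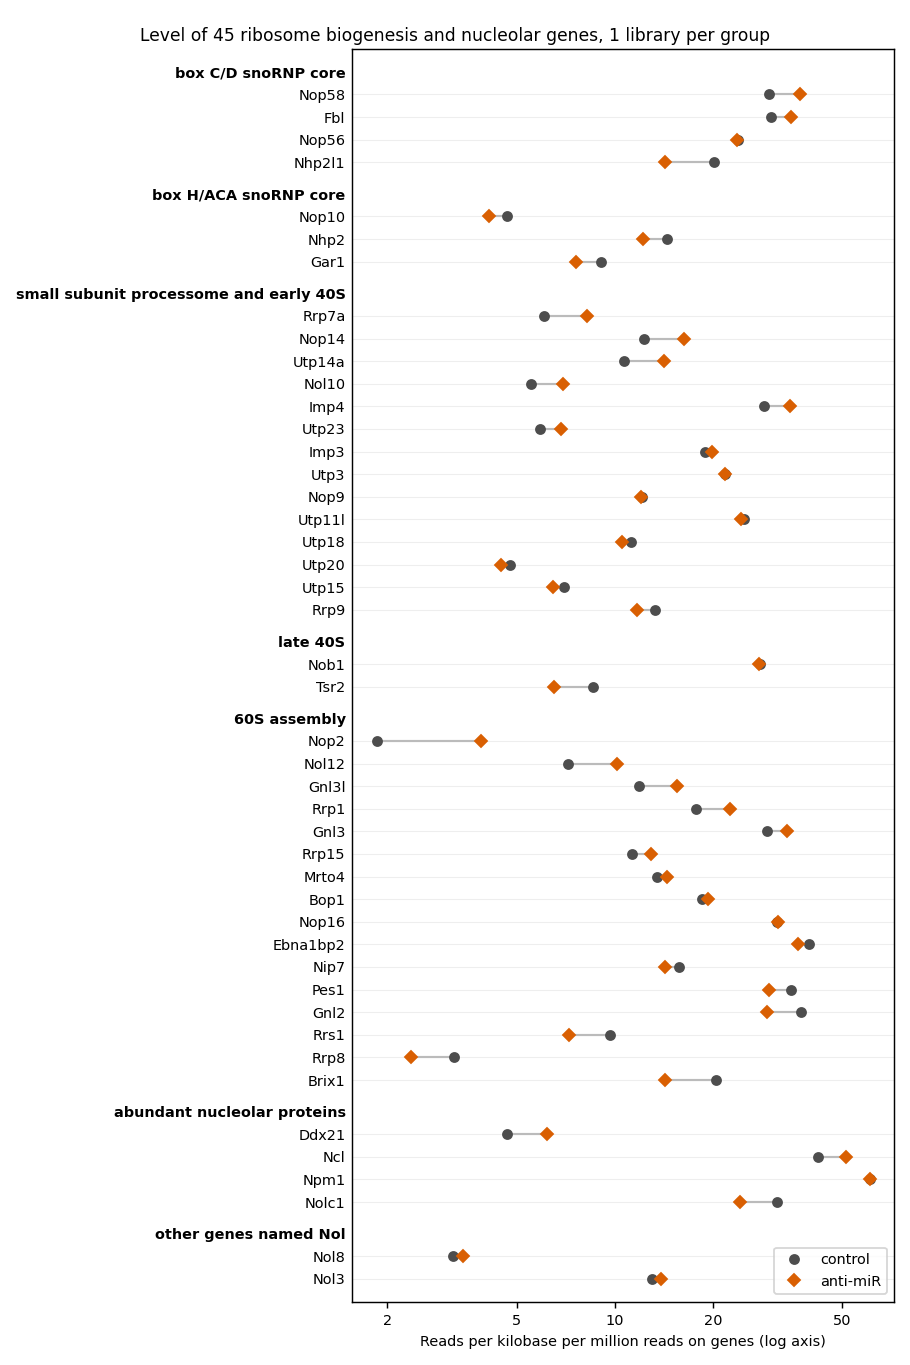
The level in RPKM (horizontal log axis) is shown for each of 45 genes, grouped by role, in the control (grey circles) and the anti-miR library (orange diamonds). For Npm1, the most abundant at 60.7 in both, the symbols coincide, and for Nop2 they lie far apart, at 1.85 and 3.87.

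Box C/D snoRNPs, which place 2′-O-methyl groups on rRNA, have 4 core proteins, and these differed in direction. Intervals lay above 1 for 2 (all genes 33.6%) and below 1 for 1 (all genes 28.1%). Nop58 (chromosome 9, 58255685 to 58279522, build rn4 here and below), a scaffold protein of the particle, had 927 and 1063 reads, or 57.8 and 71.7 RPM, a ratio of 1.24 (1.14 to 1.36). Fbl, the methyltransferase fibrillarin, had 35.4 and 40.8 RPM, a ratio of 1.15 (1.03 to 1.3). Both ratios exceeded 1 beyond counting error. Nop56, the partner scaffold of Nop58, had 45.4 and 45.1 RPM, with an interval of 0.893 to 1.1 around a ratio of 0.993. Nhp2l1, now named Snu13, binds the kinked fold of these guide RNAs and also the spliceosomal U4 RNA. It had 193 and 126 reads, or 20.2 and 14.2 RPKM, a ratio of 0.706 (0.56 to 0.889), the lowest of the 4. Per length, the highest of the 4 genes exceeded the lowest by 1.5-fold among control values and by 2.6-fold among anti-miR values.

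Box H/ACA snoRNPs, which convert uridine to pseudouridine and whose proteins also belong to telomerase, had 3 measured core genes, each with a ratio below 1 and an interval that included 1. Gar1 had 12.2 and 10.2 RPM, a ratio of 0.838 (0.673 to 1.04). Nhp2, the most abundant of them per length, had 9.54 and 8.03 RPM, a ratio of 0.842 (0.657 to 1.08). Nop10, the smallest subunit, had 64 and 52 reads, a ratio of 0.879 (0.598 to 1.29). No single difference was detectable at this depth. Their summed reads were 412 and 322, a ratio of 0.846 (0.729 to 0.981). Its interval covers counting error alone, genes are not replicates, and 46.7% of all genes had ratios below 1. The box C/D sum stood at 1.10 (1.04 to 1.17), with Nop58 and Fbl above 1, Nop56 at 0.993 and Nhp2l1 at 0.706. No background for such sums was made.

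The small subunit processome is the large particle that forms on the nascent precursor with the U3 snoRNA and frees the 18S rRNA. Of its 14 measured members, 5 had intervals above 1 (all genes 33.6%), 0 below (all genes 28.1%) and 9 including 1. The summed level was 370 and 403 RPM, a ratio of 1.09 (1.05 to 1.13). Rrp7a (chromosome 7, 121143569 to 121153457), a factor of early 40S assembly, had the highest ratio. It had 442 and 552 reads, or 27.6 and 37.3 RPM, a ratio of 1.35 (1.19 to 1.53). Nop14, a scaffold of the particle, had 496 and 610 reads, a ratio of 1.33 (1.18 to 1.5). Utp14a, which acts with the helicase of the late processome, had 352 and 429 reads, a ratio of 1.32 (1.14 to 1.52). Nol10, the counterpart of yeast Enp2, had 248 and 288 reads, a ratio of 1.26 (1.06 to 1.5). All 4 intervals lay above 1 and overlapped one another.

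Imp3 and Imp4 bind the processome protein Mphosph10 and help U3 pair with the precursor. Imp4, the most abundant processome member per length at 28.7 and 34.6 RPKM, had 771 and 860 reads, a ratio of 1.21 (1.09 to 1.33). Imp3 had 269 and 261 reads, a ratio of 1.05 (0.882 to 1.25), an interval that includes 1. Their partner Mphosph10, outside the member set, had 340 and 457 reads and a log2 ratio of 0.54.

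The other 8 processome genes had intervals that included 1. Rrp9, a U3-specific protein, was lowest, with 327 and 266 reads and a ratio of 0.88 (0.746 to 1.04). Utp23, thinly covered at 93 and 100 reads, had 1.16 (0.868 to 1.56). Utp3, Nop9, Utp11l, Utp18, Utp20 and Utp15 ran from 0.999 down to 0.927. Utp20, a very large scaffold protein with the longest transcript of the set at 8672 bases, had 660 and 572 reads but only 4.75 and 4.45 RPKM. Utp15 belongs to the subcomplex that loads first on the precursor, and it had 293 and 251 reads.

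The late 40S factors Nob1 and Tsr2 differed from each other. Nob1, the nuclease that trims the end of the 18S rRNA in the cytoplasm, had 678 and 624 reads, or 42.3 and 42.1 RPM, a ratio of 0.996 (0.892 to 1.11). Tsr2, a chaperone that delivers the ribosomal protein Rps26, had 523 and 368 reads, or 32.6 and 24.8 RPM. Its ratio of 0.761 (0.665 to 0.872) was below 1 beyond counting error.

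Genes of 60S assembly held both the highest and the lowest ratio, with 5 of 16 intervals above 1 (all genes 33.6%), 4 below (all genes 28.1%) and 7 including 1. Their summed level was 517 and 499 RPM, a ratio of 0.964 (0.934 to 0.995). Nop2 (chromosome 4, 161252117 to 161264321), a 28S rRNA methyltransferase known as a proliferation antigen, had 75 and 145 reads, or 4.68 and 9.79 RPM. Its ratio was 2.09 (1.57 to 2.8) and its log2 ratio 1.05. The 500 genes nearest in level had a central 95% of log2 ratios from −1.44 to 1.44, so Nop2 lay inside their spread. In the control Nop2 was the least abundant member per length.

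Brix1 (chromosome 2, 59826894 to 59837772) was the lowest member. It encodes a factor that binds the precursor of the large subunit early, and it had 795 and 510 reads, or 49.6 and 34.4 RPM, a ratio of 0.694 (0.62 to 0.777). Rrs1, which helps to bring the 5S rRNA particle into the subunit, had 250 and 173 reads, a ratio of 0.749 (0.613 to 0.913). Gnl2, a GTPase needed for export of the subunit, had 1370 and 993 reads, a ratio of 0.784 (0.722 to 0.852). Pes1 had 1152 and 912 reads, a ratio of 0.857 (0.784 to 0.935). Each of these 4 lay below 1 beyond counting error and within 1.5-fold. Rrp8, a methyltransferase of the 28S rRNA, had 106 and 72 reads, and its interval ran from 0.537 to 1.0.

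The PeBoW complex, made of Pes1, Bop1 and Wdr12, is required for cutting the precursor of the 28S and 5.8S rRNAs. Its subunits differed in ratio. Bop1 had 733 and 705 reads, a ratio of 1.04 (0.937 to 1.16), above the interval of Pes1. Wdr12, outside the member set, had 365 and 214 reads and a log2 ratio of −0.65.

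The nucleostemin family of nucleolar GTPases held ratios on both sides of 1 beyond counting error. Among all genes such intervals were common, at 33.6% above 1 and 28.1% below. Gnl3, nucleostemin itself, known from stem and tumour cells, had 832 and 885 reads, a ratio of 1.15 (1.05 to 1.27). Gnl3l, its close relative, had 342 and 412 reads, a ratio of 1.3 (1.13 to 1.51). The interval of Gnl2, given above, lay below 1 and does not overlap those of its relatives. Per length the family spanned 3.14-fold among control values and 2.18-fold among anti-miR values.

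Other 60S genes with intervals above 1 were Rrp1 and Nol12. Rrp1, a scaffold of the early large subunit, had 506 and 594 reads, a ratio of 1.27 (1.13 to 1.43). Nol12, an RNA-binding protein of precursor processing, had 106 and 138 reads, a ratio of 1.41 (1.09 to 1.83). Rrp15, Mrto4, Nop16, Ebna1bp2 and Nip7 had ratios from 1.15 down to 0.906 with intervals that included 1. Ebna1bp2, the most abundant 60S member per length, had 696 and 596 reads, or 39.5 and 36.6 RPKM. Mrto4, which holds the place of a ribosomal stalk protein until export, had 290 and 289 reads.

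**Figure D3:**
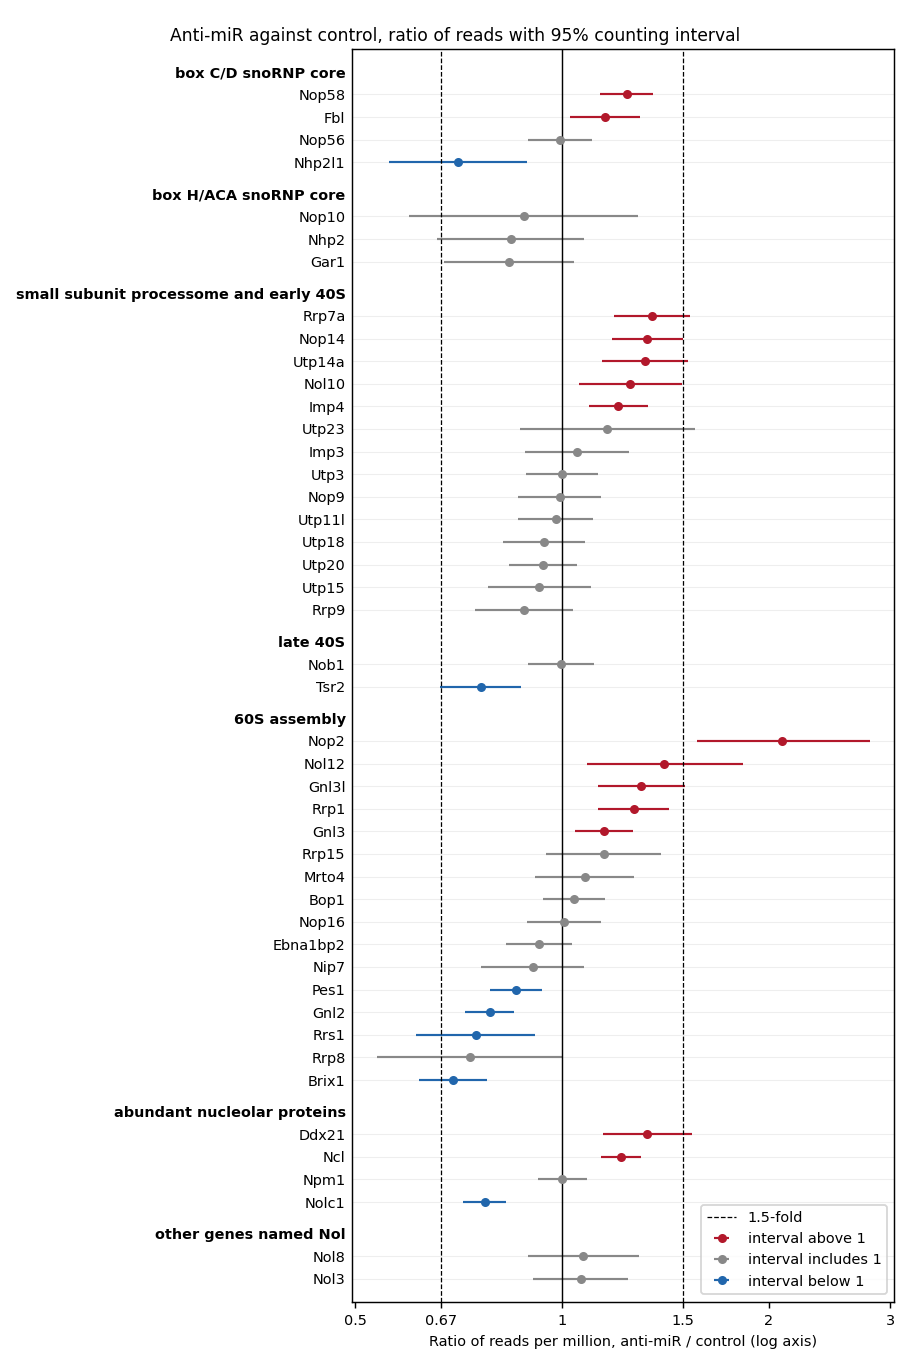
The ratio of anti-miR over control (horizontal log axis) is shown for each of 45 genes with its 95% counting interval as a bar, by role, in red where the interval lies above 1, blue below and grey where it includes 1. Dashed lines mark 1.5-fold, which Nop2 alone passes, at 2.09; the box H/ACA genes are all grey.

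Abundant nucleolar proteins also differed among themselves, with intervals above 1 for 2 of 4 (all genes 33.6%) and below 1 for 1 (all genes 28.1%). Ncl (chromosome 9, 85112752 to 85121276), nucleolin, had 1610 and 1811 reads, or 100.4 and 122 RPM, a ratio of 1.22 (1.14 to 1.3). Ddx21, an RNA helicase that links polymerase I transcription with processing, had 326 and 401 reads, a ratio of 1.33 (1.15 to 1.55). Nolc1 (chromosome 1, 251297417 to 251308127), a chaperone of snoRNPs, had 1815 and 1295 reads, or 113 and 87.4 RPM, a ratio of 0.772 (0.718 to 0.83). Npm1, nucleophosmin, a histone and ribosome chaperone, had 1233 and 1140 reads, or 76.9 RPM in both libraries, with an interval of 0.922 to 1.09. Its reads are uncertain, as processed copies of the gene are known that could share them. Per length Ncl exceeded Nolc1 in both libraries, at 42.2 and 51.4 RPKM against 31.5 and 24.3.

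The remaining genes, Nol3 and Nol8, were placed in no assembly group. Nol3 encodes ARC, an inhibitor of cell death that is abundant in heart and skeletal muscle and is not a ribosome factor. It had 319 and 314 reads, a ratio of 1.07 (0.909 to 1.25). Nol8, a nucleolar protein, had 234 and 232 reads, a ratio of 1.07 (0.891 to 1.29).

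Promoters of the members were searched for the letters CACGTG, the E-box that Myc and Max bind, and for CCGGAAG, a core bound by ETS factors, on both strands, in the 250 bases before each gene's start (RefSeq, GRCr8). The reverse of the first motif reads the same and that of the second is CTTCCGG, and 0 matches overlapped. Of 46 members 41 matched a promoter. Of the 10365 genes above the floor, 7763 matched a promoter by symbol alone, while members were also matched through their RefSeq names. The E-box stood in 6 members (14.6%), beside 5.59% of all 33469 promoters and 8.22% of those 7763. The ETS core stood in 19 (46.3%), beside 7.27% and 15.8%. Over promoters of protein-coding genes the shares were 6.16% for the E-box and 9.01% for the ETS core. With the first 50 transcribed bases added, the E-box stood in 12 members (29.3%), beside 6.42% of all and 9.38% of genes above the floor. Promoters are shown for the highest ratio, the lowest, and 3 genes with an E-box, of which Rrp7a and Gnl3 had intervals above 1 and Pes1 below; capitals mark both motifs.
Nop2 (GRCr8, chr4:159618716-159618965, plus strand): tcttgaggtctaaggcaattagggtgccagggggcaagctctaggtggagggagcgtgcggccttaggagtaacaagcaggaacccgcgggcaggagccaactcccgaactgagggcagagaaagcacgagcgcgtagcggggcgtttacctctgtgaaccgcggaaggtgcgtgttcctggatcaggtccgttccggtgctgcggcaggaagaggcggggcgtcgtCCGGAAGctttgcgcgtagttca
Brix1 (GRCr8, chr2:61188648-61188897, minus strand): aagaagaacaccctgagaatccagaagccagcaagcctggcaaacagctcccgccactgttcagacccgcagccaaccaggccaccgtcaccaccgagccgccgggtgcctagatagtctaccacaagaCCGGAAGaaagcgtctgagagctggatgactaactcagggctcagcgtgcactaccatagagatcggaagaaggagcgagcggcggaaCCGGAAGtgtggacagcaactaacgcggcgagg
Rrp7a (GRCr8, chr7:116152865-116153114, minus strand): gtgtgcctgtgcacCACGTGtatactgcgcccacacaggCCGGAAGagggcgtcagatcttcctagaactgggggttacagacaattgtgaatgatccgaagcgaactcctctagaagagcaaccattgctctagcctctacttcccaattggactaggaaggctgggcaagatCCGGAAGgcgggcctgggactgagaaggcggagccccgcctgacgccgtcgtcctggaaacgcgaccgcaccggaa
Gnl3 (GRCr8, chr16:6219783-6220032, minus strand): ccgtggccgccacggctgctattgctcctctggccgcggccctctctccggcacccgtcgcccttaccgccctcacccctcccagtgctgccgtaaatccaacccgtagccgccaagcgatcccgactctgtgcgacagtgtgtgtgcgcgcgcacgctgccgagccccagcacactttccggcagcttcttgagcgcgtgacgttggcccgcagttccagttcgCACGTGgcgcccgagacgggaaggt
Pes1 (GRCr8, chr14:83074096-83074345, plus strand): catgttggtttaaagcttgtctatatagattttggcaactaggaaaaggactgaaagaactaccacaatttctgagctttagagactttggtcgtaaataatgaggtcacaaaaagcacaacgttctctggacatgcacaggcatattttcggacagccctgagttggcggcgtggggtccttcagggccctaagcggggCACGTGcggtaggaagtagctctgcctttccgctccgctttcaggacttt

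Both extremes of the member set, Nop2 and Brix1, held the ETS core, once and as 2 copies, and neither held an E-box. In Gnl3 and Pes1 the E-box began 25 and 50 bases before the start, and in Rrp7a it began 236 bases before it. The 6 members with an upstream E-box had log2 ratios from −0.22 to 0.43 with a median of 0.06, and the 34 others above the floor a median of −0.00. The 19 with the ETS core had a median of 0.20, from −0.53 to 1.05, and the 21 without it −0.01, from −0.50 to 0.41. Intervals lay above 1 for 9 of the 19 and for 5 of the 21, where 33.6% of all genes did. They lay below 1 for 2 of the 19 and 3 of the 21, where 28.1% of all genes did. Among members with a matched promoter, Nop2, Nol12 and Rrp7a, all with the ETS core, lay above every member without it. Brix1, also with the core, lay below every member without it. The 5 members without a matched promoter could not be placed, and no test of these differences was made.

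Genes of ribosome production outside the member set were read from 5 lists. Small subunit factors had few large differences, with 1 of 33 past 1.5-fold upward (3.03%, all genes 10.8%), 0 downward (all genes 8.56%) and a median log2 ratio of 0.03. Noc4l, the partner of Nop14, was highest at 0.73, with 134 and 207 reads. Riok3, a kinase of late 40S assembly, was lowest at −0.48, with 2524 and 1676 reads, below its like-level bound of −0.38. Fcf1, a nuclease of the processome, was the most abundant per length, at 31.3 and 29.8 RPM.

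Large subunit factors had 6 of 44 past 1.5-fold upward and 3 downward, or 13.6% and 6.82% beside 10.8% and 8.56% of all genes, and their median log2 ratio was 0.10. The 6 upward became 5 under either scaling, a pseudocount of 1 RPM or a floor of 10 RPM. That list holds Guf1 and Ftsj2, whose products act in mitochondria, and without them 5 of 42 were higher and 3 lower. Gtpbp4 was highest at 1.68 but had only 8 and 27 reads. Nvl, an ATPase of 60S assembly, was lowest at −0.84, with 310 and 159 reads, below its like-level bound of −0.80. Senp3, a SUMO protease of the nucleolus, was most abundant per length, at 93.3 and 95.8 RPM.

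RNA polymerase I genes had a median log2 ratio of −0.15 over 15 genes. Intervals lay above 1 for 4 (26.7%, all genes 33.6%), below 1 for 6 (40%, all genes 28.1%) and included 1 for 5. The 1.5-fold rule was passed upward by 2 (13.3%) and downward by 2 (13.3%), beside 10.8% and 8.56% of all genes. Polr1e, a polymerase subunit, was lowest at −0.75, with 275 and 150 reads. Taf1c, a subunit of the SL1 promoter factor, was highest at 1.01, with 175 and 327 reads, above its like-level bound of 0.93. Rrn3, the initiation factor TIF-IA, was most abundant per length on the mean of both libraries, at 34.9 and 30.5 RPKM, though Znrd1, a polymerase subunit, exceeded it in the control with 37.0 RPKM (23.2 after anti-miR).

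Among RNA exosome and RNase MRP genes 1 of 22 passed the rule upward (4.55%, all genes 10.8%) and 3 downward (13.6%, all genes 8.56%), and the median was 0.03. The 3 downward became 4 under either scaling, and 1 of 14 at a floor of 10 RPM. The list includes Mpp6, a symbol that in rat can stand for a membrane scaffold protein, and without it the counts over 21 genes were the same. Intervals of the 22 lay above 1 for 5 (22.7%, all genes 33.6%) and below 1 for 8 (36.4%, all genes 28.1%). The 7 genes named Exosc, a subset not planned as a list, had a median of −0.34. Of these 7, 0 passed the rule upward and 2 downward (28.6%, all genes 8.56%). Their intervals lay below 1 for 4 (57.1%) and above 1 for 1 (14.3%). Exosc3, a cap subunit of the exosome, was lowest at −1.06, with 101 and 44 reads. Pop7, a subunit of RNase MRP, was highest at 1.04, with 124 and 237 reads. Rpp21, a subunit of the related RNase P, was most abundant per length, at 15.7 and 16.9 RPM.

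Myc had 433 and 663 reads, or 27.0 and 44.8 RPM, a log2 ratio of 0.73, above its like-level bound of 0.66. Its family and partners on the list numbered 7 above the floor, Myc included. Of these 3 passed 1.5-fold upward, Myc among them (42.9%, all genes 10.8%), and 1 downward (14.3%, all genes 8.56%). Mxd3 was highest at 1.52, with 22 and 61 reads, and Mxd4, the most abundant per length, had 528 and 807, a log2 ratio of 0.72 above its like-level bound of 0.58; both are relatives that compete with Myc for Max. Mxd1, another competitor, was lowest at −0.61, with 482 and 291 reads. Max itself had 169 and 108 reads. Mycn and Mxi1 had 0 reads in both libraries.

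**Figure D4:**
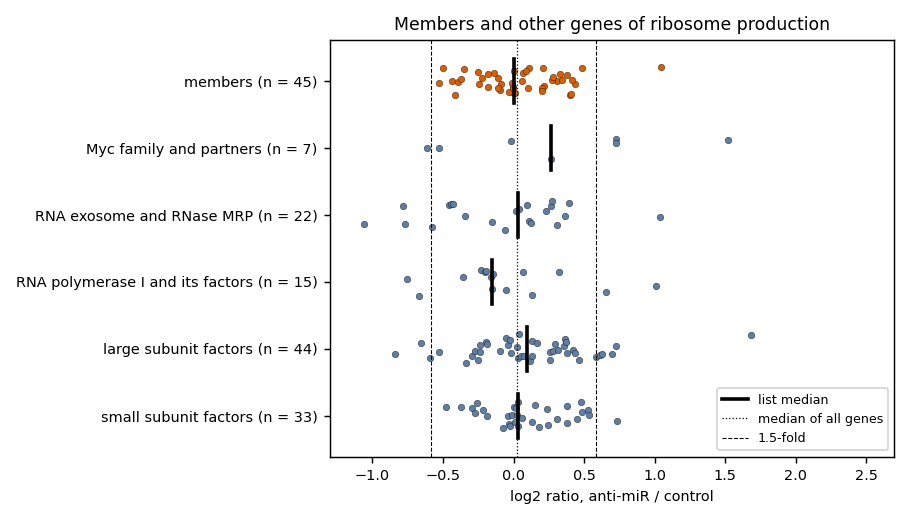
The log2 ratio of anti-miR over control (horizontal axis) is shown for each gene above the floor, with 45 members in orange and the 5 other lists in blue, spread vertically at random within a list. Thick bars are list medians, from −0.15 for RNA polymerase I genes to 0.27 for the Myc family, dashed lines mark 1.5-fold, and Nop2 is the 1 member beyond them.

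The summed level of 12 proliferation markers was 342 and 419 RPM beside these values. Of the 12, 6 were at least 1.5-fold higher (50%, all genes 10.8%) and 1 lower (8.33%, all genes 8.56%), and 0 were at 0. Their part in the differences of single ribosome biogenesis genes was not tested.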

How the data were processed

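Poly(A) RNA-seq of 2 cultures, 1 per group, was used. The authors deposited a signal, scaled reads for each gene. HOMER summed exon reads of RefSeq transcripts (rn4), antisense to the read, left totals unadjusted and condensed each gene to 1 entry, per the file headers. Tools named per the submitters' processing notes are HOMER, CASAVA 1.8.2 and STAR 2.2.0c; the scaling step and the handling of reads with several matches are not given in the sources used here. All 100% of values up to 400 reads were whole multiples of 1 step within 0.005 deposited units, so reads were recovered from the signal. Of 16847 rows, 1 symbol had a second row, at 0.

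The members and lists were chosen with earlier results of these data known. No replicate exists, so no p-value is given. The floor was a mean over both libraries of 1 RPM; ratios were log2((anti-miR + 0.1)/(control + 0.1)); 1.5-fold was the rule. Reads carry no molecular identifiers and are not independent molecules, which the counting intervals leave out. The genes named are members, Myc, and per list those with extreme ratios or the greatest level per length; Wdr12, Mphosph10 and Max were named after their values were seen. Role groups follow the proteins' known functions. Accessions of 43 members matched RefSeq, 41 under the same symbol. Python 3.11.15, scipy 1.17.1 and edgeR 4.0.16 (TMM factors) were used. The procedure was run on simulated reads that held counting error only. That checks the code and cannot show how the rules behave with spread between cultures. Alternatives were other pseudocounts, floors, scalings and a fold of 2.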

Additional observations from a re-analysis of the deposited data

How the results depend on the processing

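No paired analysis was possible because each group has 1 library. At a floor of 10 RPM, 0 of 39 members passed 1.5-fold, since Nop2 lies under that floor; with the main settings 1 of 45 did. A binomial test (exact, with Benjamini-Hochberg adjustment, chosen after seeing the data) of whole reads called 21 of 45 members, 14 higher and 7 lower, and 5975 of 10365 genes (57.6%); it compares these libraries, not the conditions. Under the other alternatives run (pseudocounts of 1 and 0.01 RPM, no floor, median-ratio and TMM scaling, members without the genes named only Nol, a fold of 2) Nop2 stayed the 1 member past the rule. The median log2 ratio of the members ran from −0.02 to 0.00. Median-ratio and TMM scaling moved all ratios by −0.02, which turned the split of members above and below 1 from 23 and 22 to 21 and 24 under both. Over all genes, 1124 were higher and 887 lower at 1.5-fold, 503 and 369 at 2-fold, 431 and 287 at a floor of 10 RPM, and 1891 and 1275 with no floor. Of 83 medians of role groups and lists under alternatives, 77 stayed within the list's own quartiles; the other 6, of the box H/ACA genes and the 2 Nol genes, kept their sign. All 135 values of single members, under a pseudocount of 1 RPM and either scaling, stayed within their counting intervals. A shift of −0.02 is small beside those intervals, so for the scalings this outcome was fixed and is no check of the ratios.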

Other observations

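Some genes of the same families stand in the table under older symbols and were not counted as members. Cirh1a, now named Utp4, had 739 control and 665 anti-miR reads, a ratio of 0.974 (0.876 to 1.08). Diexf, now Utp25, had 468 and 390 reads, a ratio of 0.902 (0.786 to 1.03). Gltscr2, now Nop53, had 1463 and 1271 reads, a ratio of 0.94 (0.871 to 1.01). All 3 intervals include 1.

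Gnl3l and Tsr2 lie on chromosome X, 70.4 kb apart on the same strand in rn4, and Fgd1 overlaps Tsr2 on the other strand. They stood on opposite sides of 1, at 1.3 (1.13 to 1.51) and 0.761 (0.665 to 0.872). Nip7 and Nob1, 361 kb apart on chromosome 19, had ratios of 0.906 and 0.996 with intervals that included 1.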
